A study of Mus musculus with 9 samples.

Results

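Glutamatergic neuron identity was followed through 8 genes in the cortex of newborn mice: Neurod2, Neurod6, Bhlhe22, Slc17a6, Slc17a7, Camk4, Camk2b and Nrgn. They were taken from the deposited tables by gene name, and all 8 were found in each table, among 23852 genes listed in either. RNA of dissected cortex was sequenced in 9 libraries from mice at postnatal day 0, on a mixed C57BL/6J, 129S6 and CD1 background. The first group, ShhN IUE (n = 3), had ShhN, the signalling fragment from the amino end of Sonic hedgehog (SHH), electroporated in utero (IUE), a method that places DNA in a patch of cells lining the ventricle. The second, SmoM2 (n = 3), carries hGFAP-Cre and the conditional allele SmoM2f/+, so that an activated Smoothened, the membrane protein that passes on the SHH signal, is made where the human GFAP promoter has driven Cre, which in the cortex includes radial glia and their descendants. The wild-type animals (n = 3) are labelled as littermates. As none of these libraries is labelled as a control electroporation, an effect of the electroporation cannot be told apart from that of ShhN. No litter or batch is listed for each library, so neither can be told apart from the group. The labels do not say whether the libraries of a group came from separate animals, so p-values cover the spread among these libraries alone, which may be technical.

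Cortical projection neurons use glutamate as their transmitter and descend from radial glia and intermediate progenitors of the pallium, the dorsal part of the forebrain. Basic helix-loop-helix (bHLH) transcription factors bind E-boxes, short DNA motifs of the form CANNTG, and act in succession: proneural factors in progenitors, then Neurod2, Neurod6 and Bhlhe22 in the postmitotic neuron. The vesicular transporters VGLUT2 (Slc17a6) and VGLUT1 (Slc17a7) load glutamate into synaptic vesicles, and VGLUT1 takes over from VGLUT2 in much of the rodent cortex after birth. Camk4, Camk2b and Nrgn belong to calcium and calmodulin signalling, which also operates in striatal neurons, so these 3 genes are not markers of glutamatergic cells alone.

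All 8 genes are protein-coding and lie on 6 chromosomes of GRCm38 (mm10), at the positions of the deposited tables. Neurod2 occupies chromosome 11, 98325415 to 98329648, on the minus strand, and Camk2b lies on the same chromosome and strand at 5969644 to 6066362. Slc17a7 (45163921 to 45176138) and Slc17a6 (51621830 to 51671125) lie on the plus strand of chromosome 7. Neurod6 is on chromosome 6 (55677822 to 55681263, minus strand), Nrgn on chromosome 9 (37544492 to 37552904, minus strand), and Bhlhe22, a gene of 1 exon, on chromosome 3 (18054174 to 18057517, plus strand). Camk4 is on chromosome 18 (32939041 to 33195767, plus strand) in the tables. The GENCODE M21 annotation places it at 32934931 to 33191228, with 72 exonic bases shared with the antisense gene 2310026I22Rik. That antisense gene had at most 3 counts in any library. The ends of Slc17a6 and Slc17a7 differ between the tables and GENCODE M21 as well, and those of the other 5 genes are the same.

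Totals were 15376071 to 19604672 counts in ShhN IUE libraries, 23625702 to 26923127 in SmoM2 libraries and 18610507 to 21694348 in wild-type libraries. All 14 pallial and pyramidal neuron factors examined were detected in every library, the lowest being Emx1 at 21.6 CPM (counts scaled to the library total). Gli1, a transcription factor induced by SHH signalling, stood at 26.2 to 68.6 CPM in ShhN IUE libraries and 5.60 to 9.17 CPM in wild-type libraries, and at 43.0 to 50.2 CPM in SmoM2 libraries and 5.53 to 9.12 CPM in wild-type libraries of the SmoM2 table. Shh itself had 51, 52 and 455 counts in ShhN IUE libraries, against 36, 62 and 31 in wild-type libraries. Scaled to the library total, these were 2.61, 3.09 and 28.4 CPM in ShhN IUE libraries, against 1.85, 2.83 and 1.70 CPM in wild-type libraries. The third ShhN IUE library, which also held the highest Gli1 level, stood far above the wild-type range. In CPM the second stood slightly above that range, and the first inside it. The same 3 wild-type libraries stand in both tables, each compared with the tested libraries of its own table, so the comparisons with wild type share their controls. Wild-type counts of 7 members agreed between the tables within 0.1 on the log2 scale. Those of Camk2b did not, with 33693 wild-type counts in the ShhN IUE table and 38793 in the SmoM2 table.

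Upstream sequence is shown for 3 members: Neurod2 and Slc17a6, each of which was the nearest member to the other over the libraries, and Neurod6, the close relative of Neurod2 that did not pass the test in either intervention. Each line gives the 180 bases before the gene's start, read 5′ to 3′ on the gene's own strand (RefSeq, GRCm38.p6), with every CANNTG in capitals. For Slc17a6 the first of its pair of listed starts is shown.
Neurod2, chr11:98329646-98329825, minus strand: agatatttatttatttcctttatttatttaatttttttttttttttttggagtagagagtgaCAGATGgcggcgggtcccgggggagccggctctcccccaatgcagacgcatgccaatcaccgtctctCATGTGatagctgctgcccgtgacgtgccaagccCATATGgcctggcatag
Neurod6, chr6:55681264-55681443, minus strand: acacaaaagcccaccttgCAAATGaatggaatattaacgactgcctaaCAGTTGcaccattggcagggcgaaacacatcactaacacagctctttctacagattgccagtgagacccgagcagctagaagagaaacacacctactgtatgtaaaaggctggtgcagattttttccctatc
Slc17a6, chr7:51621650-51621829, plus strand: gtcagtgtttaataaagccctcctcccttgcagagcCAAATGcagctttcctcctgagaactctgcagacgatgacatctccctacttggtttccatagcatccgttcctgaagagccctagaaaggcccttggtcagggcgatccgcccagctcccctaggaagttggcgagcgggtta
The Neurod2 stretch holds 3 E-boxes, beginning 118, 51 and 17 bases before the start, of which the first reads CAGATG and the last CATATG. The Neurod6 stretch holds 2, at 162 and 132 bases, and the Slc17a6 stretch 1, at 144 bases. The second listed start of Slc17a6, not shown, has CAGATG at 205 bases and CATATG at 42 bases before it. Promoters of 6 members were in the RefSeq table used, and those of Bhlhe22 and Camk4 were not among them. In the window of 250 bases before to 50 after the start, searched on both strands, Slc17a7 and Nrgn held 1 CANNTG each, and Camk2b showed no match in these letters. The Nrgn match, CATCTG, reads CAGATG on the other strand. Such matches are common, since 72.3% of 32851 promoters in the same table hold CANNTG, 17.2% hold CAGATG on either strand and 3.91% hold CATATG. Both of the fully spelled motifs are themselves forms of the first.

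The genes did not move as one block. In ShhN IUE against wild-type cortex, Camk4, Slc17a7, Slc17a6 and Nrgn fell, and the other 4 did not pass the test, in a comparison in which 17.2% of 16180 tested genes fell and 16.1% rose. In SmoM2 against wild-type cortex, Slc17a6, Neurod2 and Camk4 fell and 5 did not pass, where 9.29% of 16485 tested genes fell and 9.59% rose. The median log2 fold change of the 8 genes was −0.60 in ShhN IUE and −0.43 in SmoM2, beside −0.0038 and −0.0072 over all genes tested. These medians are description only, as the 8 genes were chosen with earlier results of these data known. In SmoM2 against ShhN IUE cortex, Slc17a6 was lower and Camk4 and Nrgn higher among the 7 members tested, where 8.07% of 12349 genes fell and 8.45% rose. A gene is said to fall or rise where its adjusted p is below 0.05 in edgeR's quasi-likelihood test, adjusted by the Benjamini-Hochberg method over all genes tested. Log2 fold changes carry their SE, and CPM are scaled by the TMM method. RNA of whole tissue cannot tell fewer cells of a type apart from less RNA per cell.

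**Figure D1:**
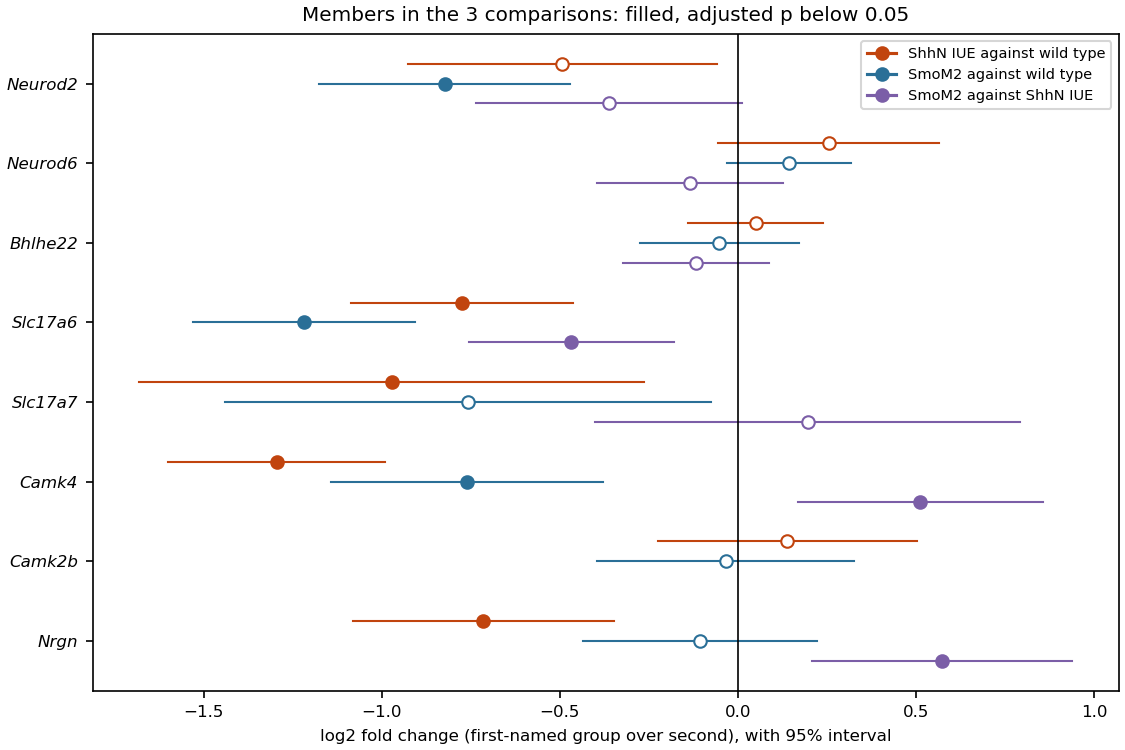
Log2 fold change (horizontal axis) of each of the 8 genes (rows) in ShhN IUE against wild type, SmoM2 against wild type and SmoM2 against ShhN IUE, as circles with 95% intervals, filled where adjusted p was below 0.05. The largest falls were Camk4 in ShhN IUE (−1.30 ± 0.13) and Slc17a6 in SmoM2 (−1.22 ± 0.14), and Neurod6, Bhlhe22 and Camk2b lay near 0 in every comparison shown.

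Markers of other cells moved with the interventions, and their part in the results for the 8 genes was not tested. The summed level of 9 pan-neuronal markers overlapped wild type, at 7929 to 9112 CPM in ShhN IUE libraries and 7724 to 9296 CPM in wild-type libraries, and at 6998 to 7439 CPM in SmoM2 libraries and 6798 to 7787 CPM in wild-type libraries. Of these 9, 3 fell and 1 rose in ShhN IUE (median log2 fold change −0.24), and 1 fell and 1 rose in SmoM2 (median −0.19). Of 8 GABAergic markers, 5 rose in ShhN IUE, with sums of 859 to 1303 CPM against 501 to 542 CPM in wild type. In SmoM2, 5 rose and 1 fell, with sums of 957 to 1037 CPM against 490.5 to 558 CPM in wild type. Of 7 markers of radial glia and cycling progenitors, 6 rose in ShhN IUE (1076 to 1233 CPM against 532 to 745 CPM in wild type) and 5 in SmoM2 (913 to 1085 CPM against 537 to 702 CPM in wild type). All 6 striatal markers fell in both, with sums of 39.2 to 47.2 CPM in ShhN IUE libraries against 169 to 242 CPM in wild type, and 41.9 to 50.4 CPM in SmoM2 libraries against 159 to 238 CPM in wild type. Striatal neurons also express Camk4 and Nrgn, and Camk2a, Bcl11b and Mef2c of the lists described further on. Of 5 oligodendrocyte-lineage markers, 4 rose in each intervention.

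Among the transcription factors, Neurod2 fell in SmoM2, and Neurod6 and Bhlhe22 did not pass the test in either intervention. Neurod2, a bHLH activator of postmitotic projection neurons, had 385, 332 and 363 CPM in SmoM2 libraries, against 775, 494 and 642 CPM in wild-type libraries. Every SmoM2 library lay below every wild-type library, and the mean was 56.5% of wild type (log2 fold change −0.82 ± 0.15, n = 3 per group, edgeR adjusted p = 0.00866). In ShhN IUE libraries it had 473, 535 and 368 CPM, against 787, 499 and 651 CPM in wild-type libraries. The second ShhN IUE library stood above the second wild-type library, so the groups overlapped, and the difference of −0.49 ± 0.19 did not pass (edgeR adjusted p = 0.0775). It passed without wild-type replicate 2 (log2 fold change −0.65, adjusted p = 0.0351) and in DESeq2 with all libraries (adjusted p = 0.0328). Without wild-type replicate 1 it was −0.32 (adjusted p = 0.234), and without ShhN IUE replicate 3 −0.35 (adjusted p = 0.188).

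Neurod6 (also called NEX) marks the same postmitotic neurons as Neurod2 and did not pass the test in either direction. It had 687, 658 and 491 CPM in ShhN IUE libraries, against 536, 478 and 525 CPM in wild-type libraries, with a log2 fold change of 0.25 ± 0.13 (edgeR adjusted p = 0.177). The third ShhN IUE library stood inside the wild-type range and the other 2 above it. Without that library the gene passed as higher in ShhN IUE (log2 fold change 0.40, adjusted p = 0.0228). In SmoM2 libraries it had 559, 561 and 566 CPM, against 529.9, 477 and 519.5 CPM in wild-type libraries. These groups did not overlap, but the difference was small (0.14 ± 0.08, 95% interval −0.03 to 0.32) and did not pass (adjusted p = 0.222).

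Bhlhe22 (also called Bhlhb5), a repressor of the bHLH family that takes part in the area identity of postmitotic cortical neurons, was the steadiest of the 8 genes over the libraries. Its values were 335, 347 and 320.1 CPM in ShhN IUE libraries, against 315, 321 and 332 CPM in wild-type libraries, and 342, 319 and 271 CPM in SmoM2 libraries, against 314, 321 and 331 CPM in wild-type libraries. The groups overlapped in both comparisons, and the 95% interval of the log2 fold change ran from −0.14 to 0.24 in ShhN IUE (edgeR adjusted p = 0.668) and from −0.27 to 0.17 in SmoM2 (adjusted p = 0.747).

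The balance of Neurod6 to Neurod2 within a library, in FPKM (fragments scaled to gene length and library size), was examined after the values had been seen. The ratio of Neurod6 to Neurod2 FPKM was 2.12, 1.80 and 1.95 in ShhN IUE libraries, against 0.995, 1.40 and 1.18 in wild-type libraries. In SmoM2 libraries it was 2.12, 2.47 and 2.28, against 1.000, 1.41 and 1.18 in wild-type libraries. Each library of either intervention lay above every wild-type library. A two-sided exact permutation test gave p = 0.1 for both, the smallest p that 3 libraries against 3 allow, and 0.2 after adjustment over the 4 relations of this kind that were computed.

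**Figure D2:**
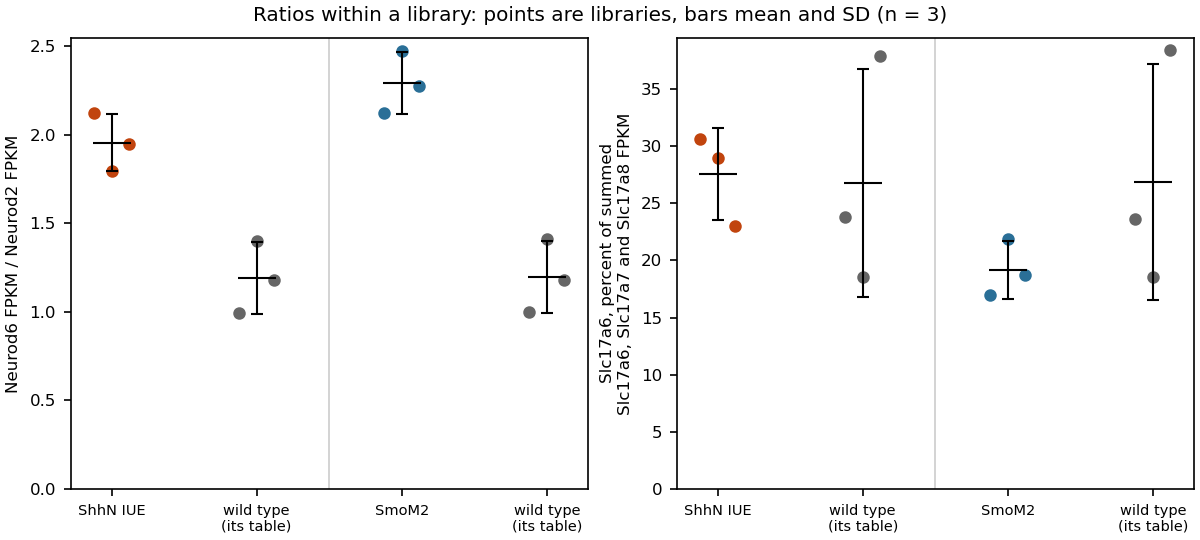
Ratio of Neurod6 to Neurod2 FPKM (left panel) and percent of the summed FPKM of Slc17a6, Slc17a7 and Slc17a8 that belonged to Slc17a6 (right panel), for ShhN IUE and SmoM2 libraries, each left of the wild-type libraries of its own table; points are libraries and bars mean and SD. The Neurod6 to Neurod2 ratios of both interventions sit above all wild-type ratios, while the Slc17a6 shares overlap wild type.

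Of the vesicular glutamate transporters, Slc17a6 fell in both interventions with no overlap between groups. Slc17a7 fell in ShhN IUE, with 1 wild-type library far below the other 2. Slc17a6 had 30.2, 29.4 and 26.6 CPM in ShhN IUE libraries, against 57.1, 43.2 and 47.5 CPM in wild-type libraries. Its mean in ShhN IUE was 58.4% of wild type (log2 fold change −0.78 ± 0.14, n = 3 per group, edgeR adjusted p = 0.00475). In SmoM2 libraries it had 19.7, 23.9 and 19.4 CPM, against 56.2, 43.1 and 47.2 CPM in wild-type libraries. That was 43.0% of wild type (−1.22 ± 0.14, adjusted p = 0.00108), and the call held under all 14 alternative settings in each comparison. Slc17a6 is also a gene of thalamic neurons. Of 5 thalamic markers, Lhx9 and Gbx2 had at most 26 and 8 counts in any library and could not be tested. The summed level of the other 3 was 50.9 to 77.1 CPM in ShhN IUE libraries against 46.3 to 56.9 CPM in wild type, and 48.0 to 48.4 CPM in SmoM2 libraries against 48.3 to 64.3 CPM in wild type. Among them Tcf7l2 rose in SmoM2 (log2 fold change 0.98, edgeR adjusted p = 0.0276), and no other of these 3 passed. The median log2 fold change of the 3 was −0.29 in SmoM2 and 0.39 in ShhN IUE, where none passed. The part of thalamic cells in the fall of Slc17a6 was not tested.

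Slc17a7, the transporter of mature cortical synapses, had 46.1, 48.7 and 60.4 CPM in ShhN IUE libraries, against 124, 128 and 52.3 CPM in wild-type libraries. The third wild-type library stood below the third ShhN IUE library, so the groups overlapped. The gene passed as lower in ShhN IUE (−0.97 ± 0.31, edgeR adjusted p = 0.0425), but the call was lost without ShhN IUE replicate 1, 2 or 3 (log2 fold change −0.89, −0.92 and −1.09) or wild-type replicate 1 or 2 (−0.80 and −0.77). Adjusted p ranged from 0.00275 to 0.128 over its 14 alternatives, of which 8 lost the call. With wild-type replicate 3 left out, the log2 fold change was −1.29 (adjusted p = 0.00404). In SmoM2 libraries Slc17a7 had 64.8, 57.4 and 56.6 CPM, against 123, 128 and 50.9 CPM in wild-type libraries, which did not pass (−0.76 ± 0.30, adjusted p = 0.113). It passed without wild-type replicate 3 (−1.06, adjusted p = 0.00184). The remaining vesicular transporter gene of the family, Slc17a8 (VGLUT3), stood at 0.730 ± 0.176 CPM in ShhN IUE and 0.983 ± 0.151 CPM in wild type (SD, n = 3) and did not pass (adjusted p = 0.388).

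Slc17a6 made up 30.7, 29.0 and 23.0% of the summed FPKM of the 3 transporter genes in ShhN IUE libraries, against 23.8, 18.6 and 37.9% in wild-type libraries. In SmoM2 libraries its share was 16.9, 21.9 and 18.7%, against 23.6, 18.6 and 38.4% in wild-type libraries. The groups overlapped in both cases, and two-sided exact permutation tests gave p = 1 in ShhN IUE and p = 0.3 (0.4 after adjustment over the 4 relations) in SmoM2. With 3 libraries against 3, such a test cannot go below 0.1.

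In the calcium and calmodulin group, Camk4 fell in both interventions, Nrgn fell in ShhN IUE, and Camk2b passed in neither. Markers of striatum, whose neurons also use these genes, fell in the same libraries, and their part in these falls was not tested. Camk4, a kinase that carries calcium signals to the nucleus and phosphorylates CREB, had 68.4, 57.8 and 60.7 CPM in ShhN IUE libraries, against 163, 168 and 128 CPM in wild-type libraries. This was the largest fall among the 8 genes in ShhN IUE, to 40.7% of wild type (log2 fold change −1.30 ± 0.13, n = 3 per group, edgeR adjusted p = 0.000866). In SmoM2 libraries it had 75.1, 111 and 82.7 CPM, against 161, 168 and 126 CPM in wild-type libraries. The groups did not overlap, although the second SmoM2 library stood close to the third wild-type library (−0.76 ± 0.17, adjusted p = 0.0167). The SmoM2 call was lost without SmoM2 replicate 1 (−0.64, adjusted p = 0.0635) or replicate 3 (−0.69, adjusted p = 0.0761).

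Nrgn encodes neurogranin, which holds calcium-free calmodulin at the postsynapse. It had 121, 82.7 and 111 CPM in ShhN IUE libraries, against 190.1, 179 and 149 CPM in wild-type libraries. All ShhN IUE libraries lay below all wild-type libraries, at 60.9% of the wild-type mean (−0.71 ± 0.16, edgeR adjusted p = 0.0118). SmoM2 libraries had 180.3, 166 and 126 CPM of Nrgn, against 184, 177 and 148 CPM in wild-type libraries. Here the groups overlapped and the gene did not pass (−0.11 ± 0.14, 95% interval −0.43 to 0.22, adjusted p = 0.647). Camk2b, the beta subunit of CaM kinase II, which binds actin in dendritic spines, had 586, 759 and 530.0 CPM in ShhN IUE libraries, against 665, 516 and 523 CPM in wild-type libraries. It had 659.7, 609.7 and 657 CPM in SmoM2 libraries, against 814, 501 and 658 CPM in wild-type libraries. Neither difference passed, with log2 fold changes of 0.14 ± 0.16 in ShhN IUE (adjusted p = 0.528) and −0.03 ± 0.16 in SmoM2 (adjusted p = 0.902).

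**Figure D3:**
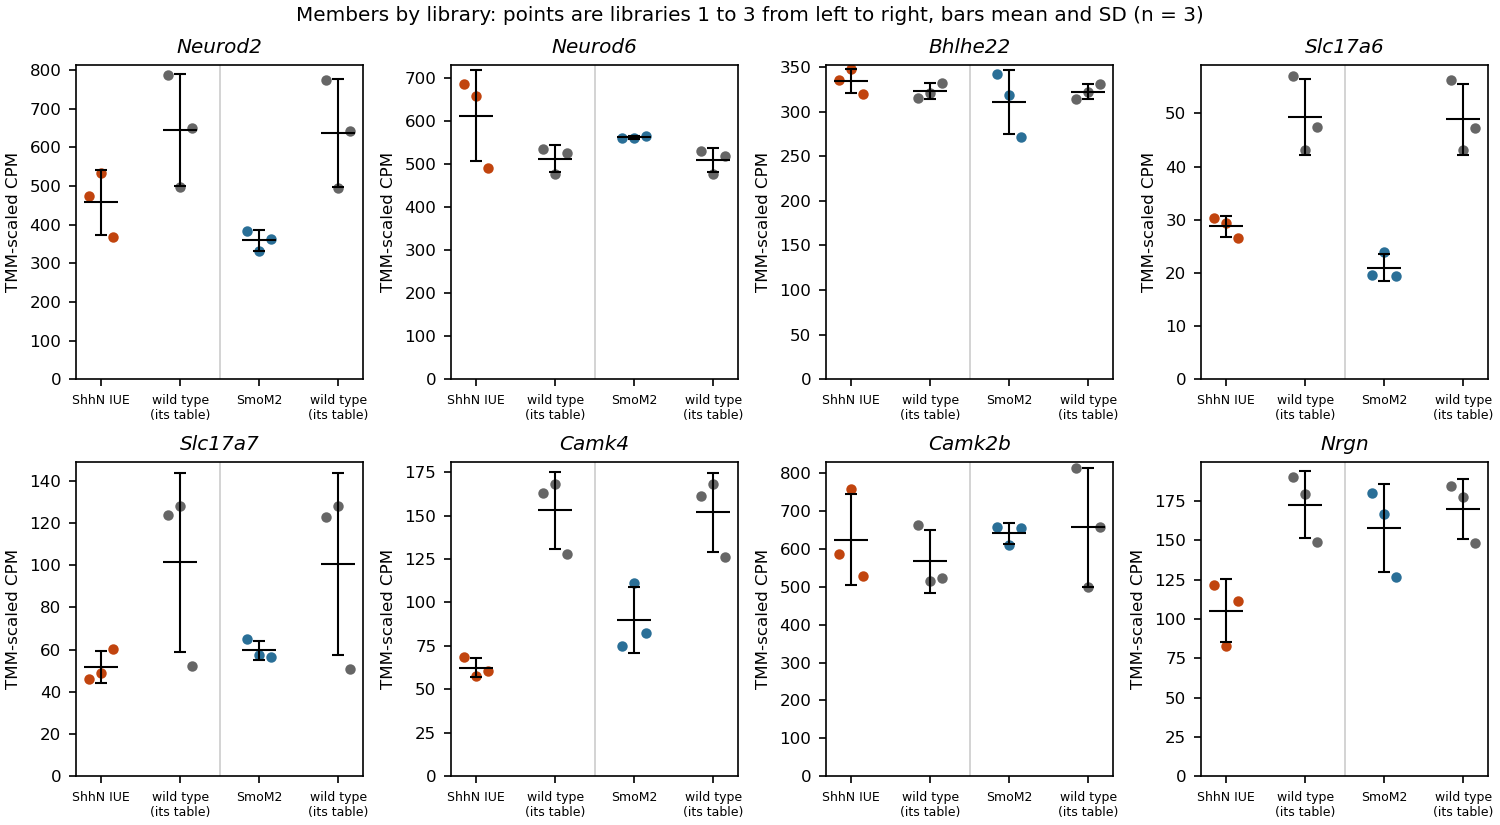
TMM-scaled CPM of the 8 genes (vertical axes, from 0) in each library; ShhN IUE and SmoM2 libraries each stand left of the wild-type libraries of their own table, points run from replicate 1 to 3, and bars give mean and SD. Slc17a6 and Camk4 are below wild type in all libraries of both interventions, and the third wild-type library is low for Slc17a7.

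The interventions were then set against each other in a fit of all 9 libraries over the genes whose wild-type counts agree between the tables. Camk2b was therefore not tested, and CPM in this fit are relative to those genes and higher than above. Slc17a6 had 29.9, 36.3 and 29.3 CPM in SmoM2 libraries, against 46.6, 45.1 and 40.4 CPM in ShhN IUE libraries (−0.47 ± 0.13, edgeR adjusted p = 0.034). Camk4 had 114, 169 and 125 CPM in SmoM2 libraries, against 105, 88.5 and 92.1 CPM in ShhN IUE libraries (0.51 ± 0.16, adjusted p = 0.0463). Nrgn had 274, 253 and 191 CPM in SmoM2 libraries, against 187, 127 and 169 CPM in ShhN IUE libraries (0.57 ± 0.17, adjusted p = 0.0386). The groups did not overlap for any of these 3 genes. They are singled out by their calls, however, so this adds no support to the calls. In SmoM2 the transporter was the lower, and the kinase and neurogranin were the higher.

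These 3 calls lay near the threshold and depended on single libraries. Leaving out 1 of the 6 SmoM2 and ShhN IUE libraries gave log2 fold changes of −0.57 to −0.41 for Slc17a6, 0.33 to 0.63 for Camk4 and 0.43 to 0.71 for Nrgn. Slc17a6 lost its call without SmoM2 replicate 1 or 3 or ShhN IUE replicate 1 or 2, and Nrgn without SmoM2 replicate 1 or 2 or ShhN IUE replicate 2 or 3. Of these 6 fits, Camk4 kept its call only in the one without SmoM2 replicate 1. Adjusted p over all 17 alternatives ranged from 0.0128 to 0.133 for Slc17a6, 0.0136 to 0.172 for Camk4 and 0.00724 to 0.129 for Nrgn. The other 4 members tested did not pass. Their 95% intervals of the SmoM2 over ShhN IUE log2 fold change were −0.73 to 0.01 for Neurod2, −0.39 to 0.13 for Neurod6, −0.32 to 0.09 for Bhlhe22 and −0.40 to 0.79 for Slc17a7. Neurod6 passed as lower in SmoM2 without ShhN IUE replicate 3 (−0.28, adjusted p = 0.0417).

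Per gene length, the transcription factors were the most abundant of the set and Camk4 and Slc17a6 the least, in FPKM as deposited. Neurod6 stood at 288 ± 44.5 FPKM in ShhN IUE, 264 ± 2.74 in SmoM2 and 234 ± 7.86 in wild type (mean and SD, n = 3, wild type from the ShhN IUE table). Neurod2 followed at 148 ± 24.5, 115 ± 9.37 and 201 ± 39.8 FPKM in the same groups. In wild type these 2 overlapped in their ranges, and they were apart in both interventions. Next in wild type came Bhlhe22 (95.1 ± 3.87 FPKM) and Nrgn (90.3 ± 11.3), which overlapped, then Slc17a7 (34.0 ± 14.5) and Camk2b (31.4 ± 3.94), which overlapped. Camk4 (12.2 ± 1.90) and Slc17a6 (11.2 ± 1.33) came last and overlapped. In ShhN IUE no neighbours in the order overlapped, and Camk4 (5.12 ± 0.436 FPKM) stood below Slc17a6 (6.75 ± 0.320). In SmoM2 it was Slc17a6 (4.89 ± 0.558 FPKM) that stood below Camk4 (7.32 ± 1.50), and Bhlhe22 and Nrgn were the only neighbours that overlapped.

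**Figure D4:**
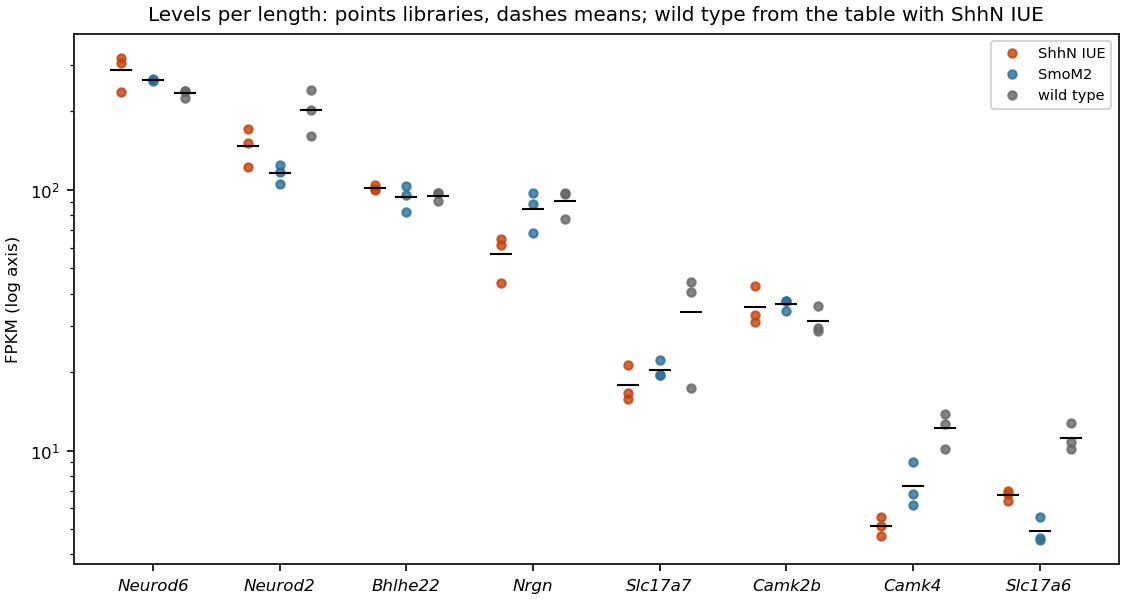
FPKM (log axis) of the 8 genes in ShhN IUE, SmoM2 and wild-type libraries, ordered by mean wild-type level; points are libraries and dashes means. Neurod6 is highest in each group, and the lowest gene is Camk4 in ShhN IUE and Slc17a6 in SmoM2 and wild type.

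Other genes of the same systems were read from 4 lists. Over all genes tested, 17.2% fell and 16.1% rose in ShhN IUE, and 9.29% fell and 9.59% rose in SmoM2. Of the bHLH factors and their partners, 13 of 16 could be tested. In ShhN IUE, 4 fell, 2 rose and 7 did not pass. Neurog2, the proneural factor that acts upstream of the Neurod genes in pallial progenitors, rose in ShhN IUE to 14.9 ± 4.69 CPM, against 6.49 ± 1.05 CPM in wild type (log2 fold change 1.20, edgeR adjusted p = 0.0113). Tcf3, which encodes an E protein that pairs with bHLH factors, also rose (0.75, adjusted p = 0.00171). Prdm8, the partner of Bhlhe22 in a repressor complex (−0.61), Cdh11, a gene which that complex represses (−0.75), and Nhlh2, a neuronal bHLH factor (−0.71), fell in ShhN IUE. In SmoM2, 3 fell, 2 rose and 8 did not pass: Nhlh2 (−1.32), Prdm8 (−0.61) and Cdh11 (−0.59) fell, and the E protein genes Tcf3 (0.42) and Tcf12 (0.35) rose. Neurog2 stood at 5.42 ± 1.19 CPM in SmoM2 and 6.46 ± 1.09 CPM in wild type and did not pass (adjusted p = 0.467). Set directly against ShhN IUE, Neurog2 was lower in SmoM2 (−1.47, adjusted p = 0.00497). Tcf3 was not tested there, as its wild-type counts differ between the tables by more than 0.1 on the log2 scale. Nhlh2 lost its call in ShhN IUE without ShhN IUE replicate 1 or 2 or wild-type replicate 1 or 3 (adjusted p = 0.0562 to 0.0930), and Prdm8 without ShhN IUE replicate 1 (0.0533). In SmoM2, Cdh11 lost its call without any of the SmoM2 libraries or wild-type replicate 2 or 3 (0.0567 to 0.0958), and Prdm8 without SmoM2 replicate 2 or 3 (0.0902 and 0.104). Tcf3 lost its SmoM2 call without SmoM2 replicate 1 or 3 (0.0663 and 0.0821), and Tcf12 without any of the SmoM2 libraries or wild-type replicate 1 or 3 (0.0513 to 0.137). The list's counts moved accordingly. The number that fell in ShhN IUE was 1 without ShhN IUE replicate 1 and 2 without replicate 2. In SmoM2, the number that rose was 0 without SmoM2 replicate 1 or 3 and 1 without SmoM2 replicate 2 or wild-type replicate 3, and the number that fell was 1 without SmoM2 replicate 2 or 3.

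Calcium and calmodulin genes beyond the members mostly fell where they passed. Of 22 such genes, all tested, 8 fell, 1 rose and 13 did not pass in ShhN IUE. The calcineurin subunits Ppp3ca (−1.01) and Ppp3r1 (−0.82), the calmodulin gene Calm2 (−0.89) and the CaM kinase II inhibitor Camk2n1 (−1.38) fell in ShhN IUE, and the kinase Camk1 rose (0.77, edgeR adjusted p = 0.00205). In SmoM2, 11 fell, 1 rose and 10 did not pass, among them falls of the kinase Camk1d (−0.93), Calm2 (−0.62), Ppp3ca (−0.53) and Camk2n1 (−0.67) and a rise of Creb1 (0.64), which encodes a nuclear substrate of CaM kinase IV. The 11 falls in SmoM2 were 7 without SmoM2 replicate 1, 6 without replicate 2 and 5 without replicate 3. Camk2a, the alpha subunit and partner of Camk2b in the kinase, was picked out after its values were seen. It fell to 23.7 ± 7.05 CPM in ShhN IUE, against 84.0 ± 23.5 CPM in wild type (−1.83, adjusted p = 0.00269), and to 43.8 ± 8.39 CPM in SmoM2, against 99.0 ± 31.5 CPM in wild type (−1.18, adjusted p = 0.0133). The second of these calls was lost without SmoM2 replicate 3 (log2 fold change −1.02, adjusted p = 0.0598). Wild-type counts of Camk2a, Ppp3ca and Creb1 differ between the tables by more than 0.1 on the log2 scale, so their values in the interventions were not compared.

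Of 12 genes of glutamate synthesis and transport, 2 fell, 2 rose and 8 did not pass in ShhN IUE. These counts were near the shares over all genes tested, of which 17.2% fell and 16.1% rose. Slc1a2, a glutamate uptake carrier of astrocytes (−0.92), was among those that fell. Slc1a3, an uptake carrier of radial glia and astrocytes (0.82), and Glul, the glutamine synthetase of glia (0.39), rose. Slc1a3 lost its call without ShhN IUE replicate 3 (log2 fold change 0.50, adjusted p = 0.0539) or wild-type replicate 1 or 3 (adjusted p = 0.102 and 0.109), and Glul without ShhN IUE replicate 1 or 3 or wild-type replicate 1 or 3 (adjusted p = 0.0677 to 0.0934). Those that rose numbered 1 without ShhN IUE replicate 1 and 0 without ShhN IUE replicate 3 or wild-type replicate 1 or 3. In SmoM2, 3 rose and 9 did not pass: Slc1a3 (1.26), the glutamate dehydrogenase Glud1 (0.64) and Glul (0.31). The rise of Glul was lost without any of the SmoM2 libraries (adjusted p = 0.0966, 0.0984 and 0.131) or wild-type replicate 1 or 3, and without wild-type replicate 3, 1 gene of the list fell in SmoM2. Markers of radial glia, which express Slc1a3, rose in both interventions as well. Of 4 astrocyte markers, Slc1a2 among them, 2 rose and 1 fell in ShhN IUE (median log2 fold change −0.03). In SmoM2, 1 of the 4 rose (median 0.29). The summed level of the 4 overlapped wild type in both interventions. The part of radial glia or astrocytes in the changes of Slc1a3 and Slc1a2 was not tested.

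Transcription factors of the pallium and of pyramidal neurons numbered 14. In ShhN IUE, 6 fell and 8 did not pass, with falls of Tle4 (−1.21), Mef2c (−1.07), Bcl11b, the deep-layer factor also called Ctip2 (−0.98), Tbr1, a factor of early-born corticothalamic neurons (−0.81), and Sox5 (−0.61). In SmoM2, 7 fell and 7 did not pass, with falls of Sox5 (−1.17), Bcl11b (−1.12), Tbr1 (to 191 ± 1.47 CPM in SmoM2, against 382 ± 46.1 CPM in wild type), Tle4 (−0.94) and the layer 4 factor Rorb (−0.75). The fall of Sox5 in ShhN IUE was lost without ShhN IUE replicate 2 or wild-type replicate 1 or 3 (adjusted p = 0.0607, 0.0594 and 0.0607), and 1 gene of the list rose without ShhN IUE replicate 3 or wild-type replicate 3. Restricted to genes with agreeing wild-type counts, 3 fell in ShhN IUE and 4 in SmoM2. Among the genes named here, wild-type counts of Mef2c, Bcl11b and Sox5 differ between the tables by more than 0.1 on the log2 scale. Their values in the interventions were therefore not compared.

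**Figure D5:**
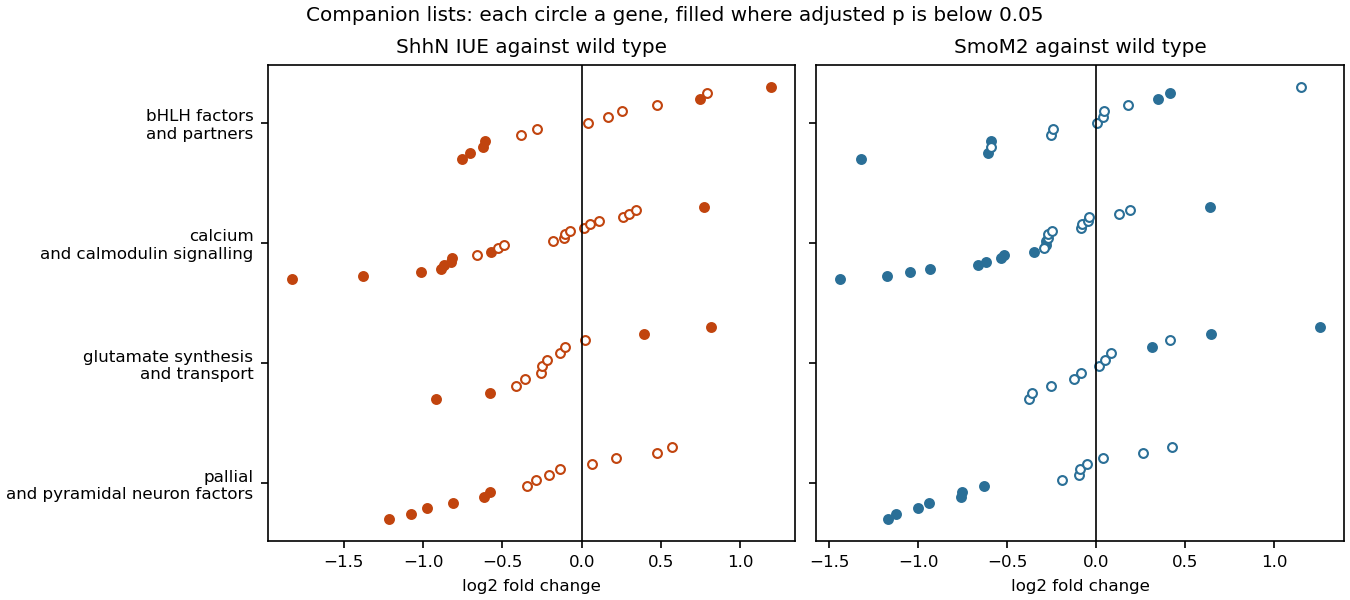
Log2 fold change of the genes of 4 lists (rows) in ShhN IUE against wild type (left) and SmoM2 against wild type (right); each circle is a gene, filled where adjusted p was below 0.05. Most filled circles of the calcium and pallial lists lie left of 0, and filled circles of the glutamate list lie on both sides in ShhN IUE and right of 0 in SmoM2.

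Genes outside the lists were ranked by the root mean square difference from each member in log2(CPM + 1), relative to the wild-type mean of the table, over the 12 library values of both tables, among 11078 candidates. The nearest to Slc17a6 were Reln (0.098), the secreted glycoprotein reelin, and Cacna2d2 (0.099), a calcium channel subunit, with the difference in log2 units in parentheses. Those nearest to Neurod2 were Nuak1 (0.12) and Emid1 (0.13), to Camk4 Galnt14 (0.13) and Slc4a10 (0.13), to Slc17a7 Hrk (0.13) and Icam5 (0.14), and to Nrgn Prmt8 (0.10) and Dusp22 (0.13). Among the members themselves, Neurod2 and Slc17a6 were 0.28 apart, Neurod6 and Camk2b 0.19, and Neurod6 and Bhlhe22 0.19, while Neurod6 and Neurod2 were 0.62 apart. These distances describe the 9 libraries, which share their groups and the wild-type samples.

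In the authors' deposited table for ShhN IUE, Camk4 was the member marked as down (q = 2.28e-10), and in the authors' deposited table for SmoM2 it was Slc17a6 (q = 4.76e-09). The other members carried no mark in the authors' deposited tables, including Neurod2 in SmoM2 with q = 8.44e-05 and Slc17a6 in ShhN IUE with q = 0.00161. A missing mark thus does not mean a q above 0.05. Slc17a7 in SmoM2 had an authors' q of 0.0474, while it did not pass in the edgeR test used here (adjusted p = 0.113).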

How the data were processed

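Bulk RNA of cortex was deposited as 2 tables, ShhN IUE with wild type and SmoM2 with wild type, each holding read counts, FPKM and a p-value with a q-value for the authors' own comparison, per the file headers. The submitters' processing notes name mm10 and GRCm38.p4 as builds and edgeR, StringTie and HISAT2 as tools. Strand use and the handling of reads that match several genes are not given in the sources used here. Groups and library numbers come from the sample titles.

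On all genes of a table, deposited counts went through edgeR 4.0.16 (quasi-likelihood F test, R 4.3.3), two-sided, with TMM scaling, the default expression filter by group and a Benjamini-Hochberg threshold of 0.05. SE is the log2 fold change over the square root of F. SmoM2 was set against ShhN IUE over the genes whose summed wild-type counts, each plus 5, agreed between the tables within 0.1 (log2), with wild-type counts averaged and rounded. Deposited FPKM served for levels between genes, ratios and shares, without a pseudocount. The nearest genes were sought among plain gene symbols with a mean of at least 5 CPM in both tables.

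All 8 members are named, and of each list up to 5 called genes with the smallest adjusted p, with the gene listed first. 1 gene that this rule names is not reported here. The members, the lists and the tests were chosen with earlier results of these data known. Alternatives were RLE and upper quartile scaling, no filter or 1 CPM in 3 libraries, DESeq2 1.42.0, limma-voom (limma 3.58.1), the replicate number as a block, each library left out, and other gene or library sets. The scripts were tested on simulated counts. Replicates differed by more than sampling noise (chi-square per degree of freedom 14.7 to 33.7), and none was merged. Loci were compared with GENCODE M21, where both ends of 5 members are the same as in the tables and those of 3 differ, and promoters are RefSeq's.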

Additional observations from a re-analysis of the deposited data

How the results depend on the processing

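Over 23 log2 fold changes of the members and 341 alternative values, 302 kept direction and side of the threshold, 29 lost a call, 5 gained one and 5 changed sign, none of them called before or after. Those 5 came from leaving out 1 library, over which log2 fold changes ran from −0.013 to 0.27 for Camk2b in ShhN IUE and, in SmoM2, from −0.20 to 0.15 for Camk2b, −0.20 to 0.042 for Nrgn and −0.12 to 0.048 for Bhlhe22. Falls of Camk4, Slc17a6 and Nrgn in ShhN IUE and of Slc17a6 and Neurod2 in SmoM2 held under every alternative run. The members called in SmoM2 against ShhN IUE fell from 3 to 1 with upper quartile scaling and to 1 with the replicate block, and ranged from 0 to 2 when 1 library was left out. The genes called in all were 5380 in ShhN IUE (3251 to 4624 with 1 library left out), 3112 in SmoM2 (1334 to 3010) and 2040 in SmoM2 against ShhN IUE (834 to 1898). Over all genes in both tables, an alternative chosen after seeing the data, the last was 3457, with 16680 genes tested instead of 12349. No scaling moved the median of all genes by more than 0.1 on the log2 scale. With FPKM of the SmoM2 table, wild-type Camk2b was 36.4 instead of 31.4 and stood above Slc17a7, and the cause was not tested. Library numbers are not said to pair the samples. Deviations of same-numbered libraries correlated at −0.32 to 0.28, and those of differently numbered libraries at −0.32 to 0.43. With 3 libraries a group, these correlations cannot settle whether the numbers pair the samples. The replicate block gave 3962, 2468 and 1499 genes in the 3 comparisons and ended the ShhN IUE call of Slc17a7 and the SmoM2 against ShhN IUE calls of Slc17a6 and Camk4.

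With 3 libraries a group, a member that did not pass the test is not shown to be unchanged, and differences within its 95% interval are compatible with the data.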
